A study of Homo sapiens with 6 samples.

Results

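The genes described here encode the aminoacyl-tRNA synthetases, the enzymes that charge each transfer RNA (tRNA) with its amino acid, together with AIMP1 and AIMP2, which are scaffold proteins of the complex that holds several of these enzymes. They were chosen by gene symbol from a fixed list, and all 37 listed genes were found among the 57150 genes of the table, with 1 row each. The list holds 22 genes of the cytosolic system and 15 genes whose symbols end in 2 and whose enzymes work in mitochondria. By the labels, the RNA came from K562, a human leukemia cell line, harvested 72 h after transfection with siRNAs against both αCP1 and αCP2 or with control siRNAs. αCP1 and αCP2 are the KH-domain proteins that bind C-rich RNA and are encoded by PCBP1 and PCBP2. The labels give 3 libraries for each of the 2 groups, and the study compared them to find splicing events that depend on αCPs. By its methods, 2 siRNAs that each target both mRNAs and 3 different control siRNAs were used on pools of cells. The table holds 1 FPKM value (fragments scaled for transcript length and sequencing depth) and 1 estimated count per gene and group. No spread between libraries can therefore be given, no difference has a replicate check, and no test was run. The values of the αCP1/2 siRNA group are called the KD column and those of the control group the CTRL column, after the labels that the table gives them.

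A synthetase recognises an amino acid and its tRNAs, joins them in a reaction that uses ATP, and so fixes which amino acid a codon will call for. The enzymes fall into a pair of structural classes, I and II, that have unrelated catalytic folds. In the cytosol of animal cells several synthetases and their scaffold proteins are bound together as the multi-synthetase complex, while the others are free or pair with elongation factors. Mitochondria translate their own small genome with a separate set of nuclear-encoded synthetases, although KARS and GARS each make both a cytosolic and a mitochondrial form. Many cytosolic synthetase genes are targets of ATF4, the transcription factor that cells make more of when amino acids run short.

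The labels of the columns were checked with the genes that the siRNAs target. At PCBP1 the KD column held 184.1 FPKM and the CTRL column 187.8, and at PCBP2 they held 530.8 and 342.4. The log2 ratios were -0.03 and 0.63, so depletion of both mRNAs was not seen in the KD column, and for this reason the columns are called only by their labels. The paper itself reports that the depletion was established in the cells for mRNA and for protein, and shows a Western blot. The values here and that report differ, and the reason was not tested. The labelled cell line was checked in the same way. Of 13 markers of K562 cells and the erythroid lineage, 6 were at 0 in both columns, GATA1, KLF1, HBZ, TAL1, GFI1B and ALAS2, and 2 were over 5 FPKM in both, HBE1 and GATA2. Of 8 epithelial markers, 5 were over 5 FPKM in both columns, and KRT18 reached 2309 FPKM in the KD column and 1748 in the CTRL column. The others were low: KRT19 was at 0, CDH1 at 0.36 and 0.43 FPKM, and EPCAM at 3.94 and 3.26, in KD and CTRL. The summed FPKM of the epithelial markers at a mean of 1 FPKM or more was 4426 and 3257. Most of it came from the keratins KRT18, KRT8 (1505 and 819) and KRT7 (540 and 604). Whether the columns hold the RNA of K562 cells is therefore in doubt, and the values below are those of the table whatever its source. The part of these markers in the values of the synthetases was not tested.

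All 37 genes were transcribed in both columns, and their median ratio between the columns was near 0. The log2 ratio was computed from FPKM with 1 added to each value, as KD over CTRL, for 13741 genes whose mean FPKM reached 1, a filter that all 37 passed. The median log2 ratio of the 37 genes was -0.06, beside 0.01 over all 13741 genes, and 17 genes lay above 0 and 20 below it. A ratio of 0.5 or more was found for 5 of the 37, AARS, AIMP2, AARS2, EARS2 and PARS2, beside 22.6% of all genes. A ratio of -0.5 or less was also found for 5, QARS, MARS, CARS, NARS2 and HARS2, beside 16.1% of all genes. Past 1, there were 2 genes higher in the KD column, EARS2 and PARS2, beside 8.51% of all genes. Past -1 there was 1 gene, QARS, beside 3.27%. The other 27 genes lay within 0.5 of 0. None of these 4 counts stood above the share of all genes. In bulk RNA, fewer cells that express a gene and less of its RNA per cell cannot be told apart.

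The estimated counts give a guide to the depth behind these values. The column totals were 13699340 for KD and 11680567 for CTRL, and the count of a single synthetase gene ran from 56 to 8088. Each total is below the number of mapped read pairs that the paper lists for any single library. The counts are therefore not the summed depth of the 3 libraries of a group. Together the 37 genes held 0.417% of the counts in the KD column and 0.521% in the CTRL column. For each gene the ratio of its shares of the column totals was given a 95% exact binomial interval. It covers counting error only, and only as far as the estimated counts stand for numbers of reads. Taken over all genes the median log2 ratio was -0.21 on the scale of count shares, so a gene was read against that median. Of the 37 intervals, 11 lay wholly above -0.21, 15 wholly below it, and 11 included it. Such intervals were not computed for all genes, so these numbers have no background share and are not read as a trait of the synthetases. The same change of scale moved the split of all genes past 0.5 from 3106 higher and 2211 lower to 2384 higher and 4306 lower, and the split of the synthetase genes from 5 higher and 5 lower to 3 higher and 11 lower. Both splits were counted from 0 and not from the median of -0.21, so they include that shift of the scale.

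**Figure D1:**
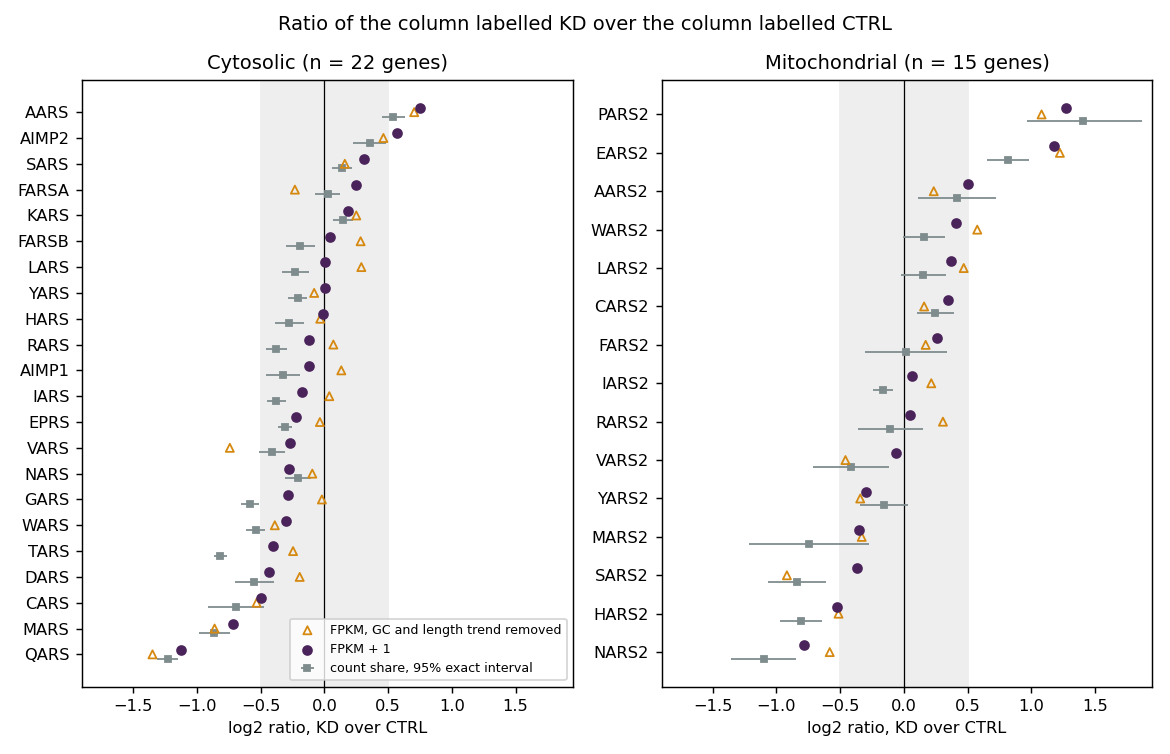
Log2 ratio of KD over CTRL for the 22 cytosolic and 15 mitochondrial genes, ordered by the ratio of FPKM + 1 (filled circles). Grey squares are ratios of count shares with 95% exact binomial intervals, open triangles are FPKM ratios after a fit on GC content and length over all genes was subtracted, and the shaded band runs from -0.5 to 0.5. QARS lies lowest at -1.13 and PARS2 highest at 1.27, and most other genes sit in the band.

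A sequence that several of the cytosolic genes share, and that neither the list nor the expression values used, lies close to their start sites. ATF4 with a C/EBP partner binds a composite element whose core reads TGATGNAA, most often as TGATGCAA, and this core was searched on both strands in windows of 300 bases, from 250 bases before to 50 bases after each annotated gene start. The search was chosen after the expression values were seen. Windows came from RefSeq on GRCh38.p14 and were found for 31 of the 37 genes, of which 18 were cytosolic and 13 mitochondrial. The exact core TGATGCAA stood in the windows of 6 genes, all of them cytosolic: AARS, CARS, IARS, MARS, NARS and TARS. This is 19.4% of the 31 genes and 33.3% of the 18 cytosolic genes, whereas 1.08% of all 27305 genes with a window and 0.645% of the 9613 measured ones held it. By windows, of which a gene can have several, the share was 0.866% of 35116. The looser core TGATGNAA, which includes every match of the exact core, added GARS and YARS2 and so stood in 25.8% of the 31 genes, against 4.46% of all genes with a window and 2.56% of the measured ones. The match began within 40 bases of the start in 6 of the 8 genes and farther upstream in AARS and YARS2, at -187 and -197 bases. In each line below, 30 bases are given 5′ to 3′ on the strand of the gene, with the match in capitals, so that the core reads as TTGCATCA where it lies on the opposite strand.
AARS: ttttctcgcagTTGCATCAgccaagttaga
CARS: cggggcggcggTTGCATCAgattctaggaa
IARS: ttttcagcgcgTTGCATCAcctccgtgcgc
MARS: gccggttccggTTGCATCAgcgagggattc
NARS: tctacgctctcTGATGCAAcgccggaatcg
TARS: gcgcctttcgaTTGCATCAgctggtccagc
GARS: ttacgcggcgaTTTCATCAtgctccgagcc
YARS2: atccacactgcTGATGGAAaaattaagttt

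These 8 segments lie, in the same order and in GRCh38.p14, at chr16:70289675-70289704 (minus strand), chr11:3057407-3057436 (minus), chr9:92293692-92293721 (minus), chr12:57488053-57488082 (plus), chr18:57621804-57621833 (minus), chr5:33440956-33440985 (plus), chr7:30594834-30594863 (plus) and chr12:32756076-32756105 (minus). The core stood on the gene's own strand in NARS and YARS2 and on the opposite strand in the other 6. No single direction of ratio went with it. AARS, which charges tRNA with alanine, was the cytosolic gene with the highest ratio, 0.75, while the other 5 genes with the exact core had ratios from -0.71 (MARS) to -0.18 (IARS). The median over these 6 genes was -0.34, against -0.07 for the cytosolic genes with a window but no exact core and -0.16 for the 62 measured genes of any function that had the core. These medians were taken on the FPKM ratio only. With the fit on GC content and length subtracted, the 6 genes were at 0.70 (AARS), 0.04 (IARS), -0.10 (NARS), -0.25 (TARS), -0.53 (CARS) and -0.86 (MARS). These are descriptions of a match of letters, and binding by ATF4 was not measured.

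**Figure D2:**
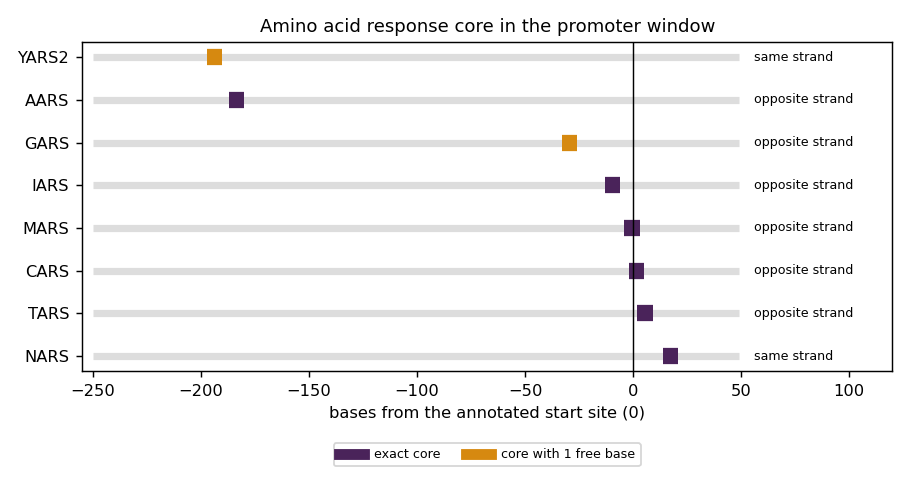
Position of the amino acid response core in the promoter windows of 8 synthetase genes, in bases from the annotated start site, which is 0, with each grey bar a window of 300 bases. Dark boxes are the exact core and orange boxes the core with 1 free base. In 6 of the 8 genes the box lies within 40 bases of the start.

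The other genes of the ATF4 amino acid response gave no common direction. All 18 listed genes were measured, 9 lay above 0 and 9 below, and the median log2 ratio was 0.02. ATF4 itself had 214.1 FPKM in the KD column and 164.0 in the CTRL column, a log2 ratio of 0.38. The 3 genes farthest from 0 pointed both ways. SLC7A11, the cystine transporter, had 0.81 FPKM against 4.50, a log2 ratio of -1.61, while the pseudokinase gene TRIB3 had 10.7 against 4.66, a ratio of 1.04, and the transcription factor gene ATF3 had 64.4 against 34.2, a ratio of 0.89. ASNS, asparagine synthetase, which was named after its value was seen, lay lower in the KD column, at 19.0 FPKM against 35.02. In 15 of these 18 genes with a promoter window, TGATGCAA was found in 1, CHAC1, and TGATGNAA in 4.

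The cytosolic genes were the abundant ones. Their FPKM ran from 14.1 to 434.0 in the KD column and from 20.4 to 574.3 in the CTRL column, with medians of 83.7 and 70.1. All 22 had a mean FPKM above the median of all measured genes, which was 11.03, and 10 stood among the 10% of genes with the highest FPKM. TARS, threonyl-tRNA synthetase, led both columns with 434.0 FPKM in KD and 574.3 in CTRL, from counts of 5390 and 8088. GARS, glycyl-tRNA synthetase, followed with 307 to 376 FPKM, and EPRS, the enzyme that charges both glutamate and proline tRNAs, with 288 to 336. The 4 genes with the highest FPKM in each column held 43.2% of the FPKM summed over the 37 in KD and 47.5% in CTRL. At the other end stood CARS, cysteinyl-tRNA synthetase, with 14.1 and 20.4 FPKM, the lowest cytosolic gene in both columns. The order of the top 3 was the same in both columns, but the 4th place passed from QARS in CTRL to KARS in KD.

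**Figure D3:**
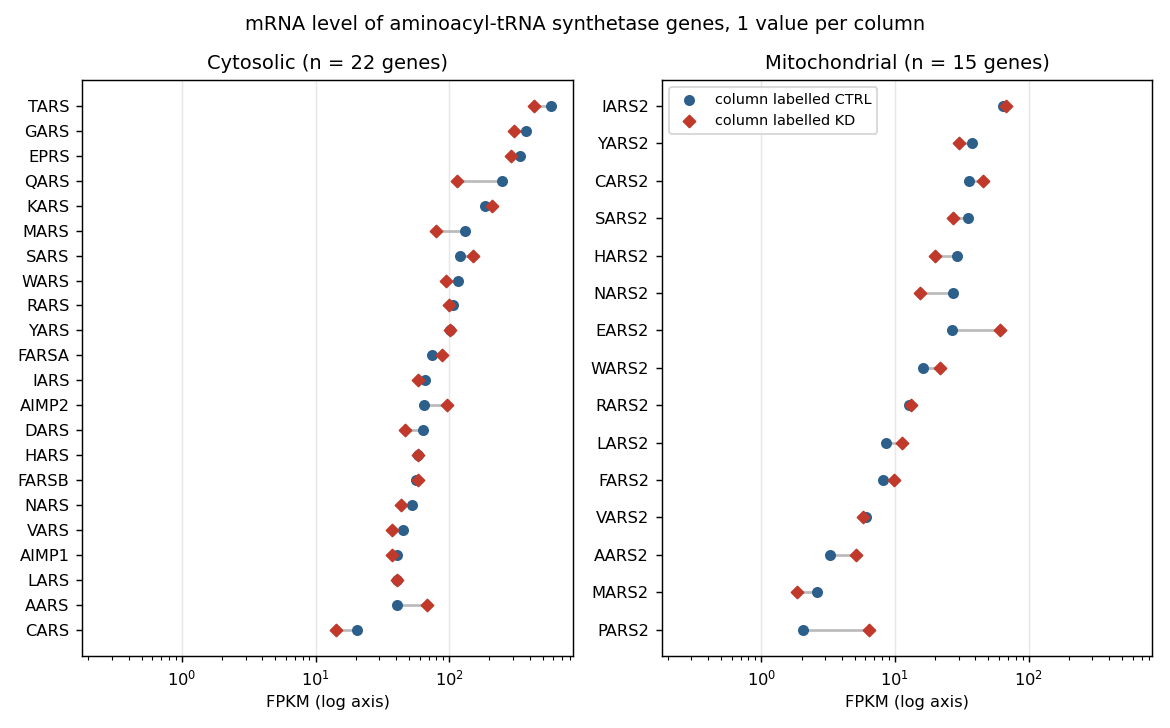
FPKM of each gene on a log axis in the CTRL column (circles) and the KD column (diamonds), with 1 value per gene and column and hence no error bars. The cytosolic genes lie at 14.1 FPKM or more and reach 574.3, and the mitochondrial genes lie at 67.7 FPKM or less.

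The cytosolic genes had a median log2 ratio of -0.15, with quartiles of -0.30 and 0.03. These describe the spread of the genes, which are not replicates of the comparison. Of the 22, 14 lay below 0, beside 48.9% of all genes, and 3 of these 14, IARS, RARS and AIMP1, lay above it with the trend described next removed. Read on count shares, the median was -0.32, which is 0.11 below that of all genes, and once a fit on GC content and length over all genes was subtracted (called the trend here) it was -0.03. Summed FPKM over the 22 genes was 2525 in KD and 2922 in CTRL. The range within the class was wide, from QARS at -1.13 to AARS at 0.75.

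QARS, glutaminyl-tRNA synthetase (ENSG00000172053; chromosome 3, 49133365 to 49142563, GRCh37, minus strand), was the cytosolic gene farthest from 0. It stood at 114 FPKM in KD against 250.2 in CTRL, from counts of 1751 and 3499. The log2 ratio of -1.13 is 2.197-fold on the FPKM scale without the added 1. On count shares it was -1.23, with an interval of -1.31 to -1.15, and with the trend removed it was -1.35. QARS was the only one of the 22 cytosolic genes past -1, and the value stayed below -1 under every alternative computation. MARS, methionyl-tRNA synthetase (chromosome 12, 57869228 to 57911352, plus strand), had 79.2 FPKM against 130.6, a log2 ratio of -0.71, from counts of 900.0 and 1395. CARS (chromosome 11, 3022152 to 3078843, minus strand) had counts of 303 and 418 and a log2 ratio of -0.50, at the edge of the band. MARS and CARS charge the sulfur-containing amino acids, and their count-share intervals, -0.98 to -0.74 and -0.91 to -0.48, both lay below the median of all genes.

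In the other direction stood AARS and AIMP2. AARS (chromosome 16, 70285886 to 70323610, minus strand) had 68.5 FPKM in the KD column and 40.4 in the CTRL column, from counts of 2746 and 1609, a log2 ratio of 0.75. Its place among the cytosolic genes went from 21st in CTRL to 13th in KD. The count-share ratio was 0.54 with an interval of 0.45 to 0.63, so AARS was past 0.5 on each scale. AIMP2 (chromosome 7, 6048886 to 6063465, plus strand) had 96.7 against 64.8 FPKM, a log2 ratio of 0.57. On count shares AIMP2 was at 0.35, which is 0.56 above the median of all genes, and with the trend removed it was inside the band at 0.46. Its counts were not whole numbers, so reads may have been divided among features, and 5 other rows of the table share its locus. A shared locus was common, since 29 of the 37 genes had at least 1 other row at theirs. Among the genes past 0.5, MARS had 6 such rows, NARS2 had 5, HARS2 had 4 and EARS2 had 3, while QARS and PARS2 had 0.

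The remaining 17 cytosolic genes lay within 0.5. Below 0 were DARS (46.8 against 63.6 FPKM, log2 ratio -0.43), TARS (-0.40), WARS (94.8 against 117, -0.30), GARS (-0.29), NARS (-0.28), VARS (37.03 against 44.9, -0.27), EPRS (-0.23), IARS (58.5 against 66.2, -0.18), AIMP1 (37.5 against 41.0, -0.12) and RARS (98.9 against 107.5, -0.12). These are the enzymes for aspartate, threonine, tryptophan, glycine, asparagine, valine, glutamate with proline, isoleucine and arginine, and the scaffold AIMP1. HARS, LARS, YARS and FARSB, for histidine, leucine, tyrosine and the beta chain of the phenylalanine enzyme, lay between -0.02 and 0.04. KARS for lysine (210 against 184 FPKM, 0.19), FARSA, the alpha chain of the phenylalanine enzyme (88.2 against 74.0, 0.25), and SARS for serine (150 against 121, 0.31) lay above 0. The alpha and beta chains form 1 enzyme, and their mRNAs stood at 88.2 and 58.4 FPKM in KD and at 74.0 and 56.8 in CTRL. The sign of IARS, LARS, RARS, YARS, FARSA, FARSB and AIMP1 turned under at least 1 scaling, so no direction is given for these 7. On count shares TARS was at -0.82, GARS at -0.58, DARS at -0.55 and WARS at -0.54, all past -0.5. Read against the median of all genes on that scale, TARS was at -0.61, while GARS at -0.38, DARS at -0.34 and WARS at -0.33 were inside the band. With the trend removed VARS was at -0.74 and GARS at -0.02.

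The 20 cytosolic enzymes were also split by structural class, with EPRS counted in class I, although its prolyl part belongs to class II. The 10 class I enzymes had a median log2 ratio of -0.25 and a highest value of 0.0015. Below 0 were 8 of the 10, beside 48.9% of all genes, but IARS and RARS were above it with the trend removed. QARS, MARS and CARS are all class I. The median was -0.23 with the trend removed and -0.39 on count shares. The 10 class II enzymes were split 5 above and 5 below 0, with a median of 0.01, or -0.03 with the trend removed and -0.20 on count shares. The difference between the classes was not tested.

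The subunits of the multi-synthetase complex differed among themselves. The complex is held together by scaffold proteins, and its 10 listed members had a median log2 ratio of -0.15, against -0.14 for the 12 cytosolic genes outside it. With the trend removed the median of the complex turned to 0.05. In FPKM the members spanned 37.5 to 288 in KD and 40.5 to 336 in CTRL, so their mRNAs were not equal in level in either column. QARS and MARS lay past -0.5 and AIMP2 past 0.5, and the other 7, EPRS, IARS, LARS, RARS, KARS, DARS and AIMP1, lay between -0.43 and 0.19. EEF1E1, the remaining scaffold protein of the complex and not on the list, had 53.4 against 68.2 FPKM, a ratio of -0.35.

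The mitochondrial genes were less abundant. Their FPKM ran from 1.84 to 67.7 in the KD column and from 2.05 to 64.7 in the CTRL column, with medians of 15.4 and 16.1, and none of the 15 was among the 10% of genes with the highest FPKM. IARS2, for isoleucine, led in both columns with 67.7 and 64.7 FPKM. MARS2, for methionine, was lowest in KD at 1.84, and PARS2, for proline, was lowest in CTRL at 2.05. The median log2 ratio of the class was 0.06 with 9 genes above and 6 below 0, and it turned to -0.11 on count shares, which is 0.10 above the median of all genes, and was 0.17 with the trend removed. Summed FPKM was 342 in KD and 315 in CTRL.

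PARS2 and EARS2 were the 2 genes of the 37 past a log2 ratio of 1. PARS2 (ENSG00000162396; chromosome 1, 55222571 to 55230196, minus strand) had 6.37 FPKM in the KD column and 2.05 in the CTRL column, from counts of 174 and 56. Its log2 ratio of 1.27 is 3.10-fold on the FPKM scale without the added 1, and the count-share interval ran from 0.96 to 1.87. EARS2 (ENSG00000103356; chromosome 16, 23532075 to 23569052, minus strand), which charges the mitochondrial tRNA for glutamate, had 61.1 FPKM against 26.5, from counts of 951 and 461, and a log2 ratio of 1.18. It passed from the 7th to the 2nd place among the mitochondrial genes. On count shares its ratio was 0.81 with an interval of 0.65 to 0.98, which is 1.02 above the median of all genes on that scale. With the trend removed the ratio of EARS2 was 1.22. AARS2 (230 against 147 counts) was at the edge of the band at 0.50, with a count-share interval of 0.11 to 0.72.

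NARS2 and HARS2 were the mitochondrial genes past -0.5. NARS2, for asparagine (chromosome 11, 78146666 to 78286239, minus strand), had 15.4 FPKM against 27.1, from counts of 203 and 371, a log2 ratio of -0.78 and a count-share interval of -1.35 to -0.85. HARS2, for histidine (chromosome 5, 140071015 to 140078890, plus strand), had 19.97 FPKM against 29.2, a log2 ratio of -0.53 and a count-share interval of -0.97 to -0.64. Within the band and lower in the KD column were SARS2 (27.0 against 35.1 FPKM, -0.37), MARS2 (1.84 against 2.62, -0.35, from 66 and 94 counts), YARS2 (30.3 against 37.5, -0.30) and VARS2 (5.77 against 6.05, -0.06). On count shares SARS2 was at -0.84 (interval -1.07 to -0.61) and MARS2 at -0.74 (interval -1.22 to -0.27), both past -0.5. With the trend removed SARS2 was at -0.92. WARS2 (21.7 against 16.1 FPKM, 0.41), LARS2 (11.4 against 8.58, 0.37), CARS2 (45.8 against 35.7, 0.35) and FARS2 (9.91 against 8.12, 0.26) lay higher. IARS2 at 0.06 and RARS2 at 0.05 (13.2 against 12.8 FPKM) turned sign on count shares, where they were -0.16 and -0.11. Against the median of all genes on that scale they lay above, by 0.04 and 0.10.

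Glutamine shows how the cytosolic and mitochondrial systems differ. Animal mitochondria have no separate glutaminyl-tRNA synthetase: EARS2 places glutamate on the tRNA for glutamine, and an amidotransferase made of the products of QRSL1, PET112 and GATC then converts it. In the KD column the cytosolic enzyme QARS was lower, at -1.13, and EARS2 was higher, at 1.18. The amidotransferase genes did not move as a unit. PET112 had 22.1 FPKM against 10.8, a log2 ratio of 0.97, GATC had 12.2 against 25.99, a ratio of -1.03, and QRSL1 had 7.57 against 7.35, a ratio of 0.04. The counts of PET112 and GATC were not whole in every column. PET112 and GATC, with TARS2 (24.5 against 14.6 FPKM, 0.71), were the 3 genes farthest from 0 among the 11 other aminoacylation genes that were found. Of those 11 genes, 2 had a ratio of 0.5 or more and 2 of -0.5 or less, and their median was -0.10.

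The cytosolic and mitochondrial enzymes for the same amino acid form 15 pairs, in which EPRS is paired with both EARS2 and PARS2. In 13 pairs the cytosolic gene had the higher FPKM in both columns. The median ratio of the cytosolic to the mitochondrial level was 4.70 in KD and 7.27 in CTRL. Cysteine was the exception, since CARS stood at 0.309 times the FPKM of CARS2 in KD and 0.572 times in CTRL. For isoleucine the order was not the same in the columns, with IARS at 0.864 times the FPKM of IARS2 in KD and 1.02 times in CTRL. The widest gap was that of EPRS over PARS2, at 45.2 in KD and 163.9 in CTRL.

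The log2 ratios of the partners had the same sign in 7 of the 15 pairs, and the mitochondrial ratio was above the cytosolic one in 10. On count shares both numbers were 9, with signs taken against 0, although the median of all genes on that scale was -0.21. Read against that median, the partners for isoleucine (-0.17 and 0.04), arginine (-0.17 and 0.10) and tyrosine (-0.002 and 0.05) lay on opposite sides. Their agreement in sign on count shares therefore depends on the reference. Several pairs include a gene whose sign turned with the scaling. Alanine was the pair with both partners at 0.5 or more, AARS at 0.75 and AARS2 at 0.50, and methionine was a pair with both below 0, MARS at -0.71 and MARS2 at -0.35. Tryptophan and cysteine had partners on opposite sides, WARS at -0.30 with WARS2 at 0.41 (0.15 on count shares) and CARS at -0.50 with CARS2 at 0.35, and serine was opposite the other way, SARS at 0.31 with SARS2 at -0.37.

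**Figure D4:**
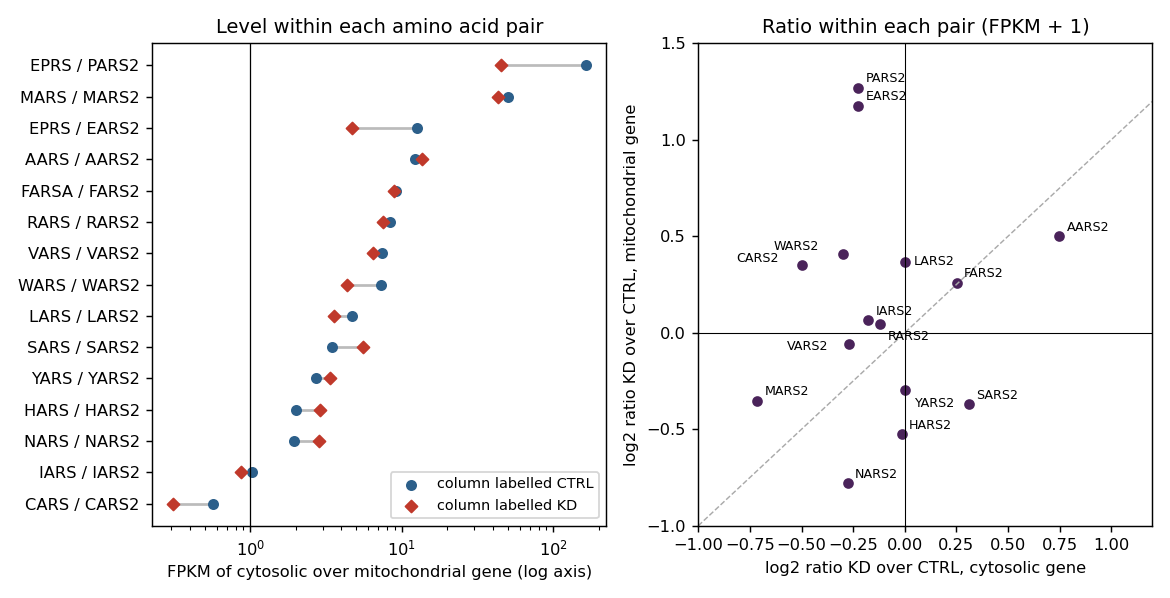
The left panel gives the FPKM of the cytosolic gene over that of its mitochondrial partner in each column on a log axis, and the right panel gives the log2 ratio of KD over CTRL of the mitochondrial gene against that of its cytosolic partner, named by the mitochondrial gene, with a dashed line of equal ratios. The cytosolic gene is higher in both columns in 13 of the 15 pairs, and 10 points lie above the dashed line.

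The histidine genes HARS and HARS2 are neighbours that run away from each other from a shared promoter, which is shown because their ratios differ. Their starts in RefSeq are 84 bases apart, and the segment at chr5:140691350-140691475 (GRCh38.p14, plus strand) holds both, with the bases between the starts in capitals, HARS read to the left and HARS2 to the right.
HARS and HARS2: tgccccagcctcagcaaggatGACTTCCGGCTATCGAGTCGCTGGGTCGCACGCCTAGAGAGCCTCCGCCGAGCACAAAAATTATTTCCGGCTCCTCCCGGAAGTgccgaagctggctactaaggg
The segment of 126 bases had a GC content of 60.3%. HARS had 57.9 FPKM in the KD column and 58.6 in the CTRL column, a log2 ratio of -0.02, while HARS2 had a ratio of -0.53. The genes overlap at their starts in the annotation of GRCh37, the counts of both were not whole, and reads of the overlap cannot be told apart, because the library kit does not mark strand. The windows of 12 of the 31 genes overlap that of a gene on the opposite strand, among them KARS with TERF2IP, WARS with WDR25 and AIMP2 with PMS2. The share of all genes with such an overlap was not computed, so this is not given as a trait of the synthetases.

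FPKM and counts can part where reads move among transcripts of unlike length, since FPKM is divided by a length that the authors' software estimates for each column. For 31 of the 37 genes the log2 ratio of FPKM, without the added 1, and that of the counts agreed within 0.15. The 6 others were NARS, YARS2, KARS, TARS, SARS2 and EARS2. NARS had an FPKM ratio of -0.28 and a count ratio of 0.02, so the counts stood at nearly the same number while the counts per unit of FPKM were 36.0 in KD and 29.2 in CTRL. YARS2 had -0.31 and 0.07, with 16.3 and 12.5 counts per unit of FPKM. In TARS the difference ran the other way, with an FPKM ratio of -0.40 and a count ratio of -0.59. Counts per unit of FPKM were 12.4 and 14.1 for this gene. Transcripts were not analysed here, and the part of length in these 6 genes was not tested.

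**Figure D5:**
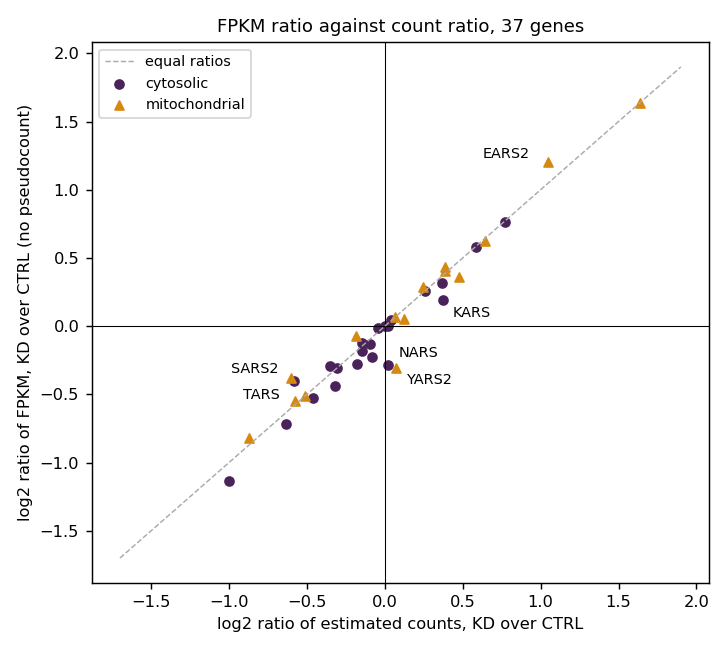
Log2 ratio of FPKM (no pseudocount) against log2 ratio of estimated counts, both KD over CTRL, for the cytosolic (circles) and mitochondrial (triangles) genes, with a dashed line of equal ratios. The 6 named genes are farther than 0.15 from the line, and NARS and YARS2 are below 0 in FPKM and above 0 in counts.

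GC content went with the ratio over all genes. The Spearman correlation of the log2 ratio with GC content was 0.445 across 13298 genes, which share their libraries and are not independent. Across the 37 synthetase genes it was 0.15. Of the 10 genes past 0.5, 8 were past it under every alternative computation, AARS, EARS2 and PARS2 higher and QARS, MARS, CARS, NARS2 and HARS2 lower in the KD column. AIMP2 and AARS2 were not. Read against the median of all genes on count shares, which was not among those computations, CARS was inside the band at -0.49. PARS2 has no value with the filter at 5 FPKM.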

How the data were processed

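The libraries, 3 per group per the labels, are labelled as K562 RNA and were made with a TruSeq kit and read as paired ends. The authors mapped reads with TopHat 1.4.1 to hg19 and computed FPKM with Cuffdiff 2.2.0. The deposited table gives 1 FPKM and 1 estimated count per gene and group, and how the libraries were combined is not stated in the sources used here. The authors' own fold changes, p-values, FDR and group averages in the table were not used. The groups were compared as log2 ratios of FPKM with a pseudocount of 1, with a filter at a mean FPKM of 1. Tests across libraries need values per library and were not run. Shares of the estimated counts, unrounded, as deposited, gave exact binomial intervals at the 95% level (counts rounded for the interval only). PARS2, with 56 counts in CTRL, is the least precise of the genes past 0.5. A gene was said to have whole counts within a tolerance of 0.01. Coordinates, GC content and length came from GENCODE on GRCh37, and promoter windows from RefSeq on GRCh38.p14. Every listed synthetase gene was named, context and marker lists were given mainly by counts, and 1 marker gene was left out of its list and is not reported here. The genes and lists were chosen with earlier results of these data known. Alternatives were a pseudocount of 0.1, no filter, a filter at 5, count shares, centring on the median, subtraction of a quadratic fit on GC content and on log2 of length, and summing rows of a symbol. The tools scipy 1.17.1, pandas 2.3.3, numpy 2.4.6, matplotlib 3.10.9 and Python 3.11.15 were used, and the functions were tested on simulated data.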

Additional observations from a re-analysis of the deposited data

How the results depend on the processing

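Across the 7 alternatives 28 of the 37 genes had 1 sign throughout, and no gene past 0.5 turned sign. Dividing counts by the column total moved the median of the cytosolic genes from -0.15 to -0.32, as the median of all genes moved to -0.21, and removal of the trend gave 4 genes higher and 7 lower past 0.5. By direction, count shares moved the genes past 0.5 from 5 higher and 5 lower to 3 and 11, and all genes from 3106 and 2211 to 2384 and 4306. These were counted from 0, so they include the shift of the median of all genes to -0.21. The counts with both directions pooled stayed within 1.5 times the main count. The mitochondrial median turned sign on count shares, although it was 0.10 above the median of all genes there. The filter at 5 FPKM left 34 of the 37 genes, without PARS2, AARS2 and MARS2. Count-share ratios exist for 13626 of the 13741 genes, since the others have a count of 0. No paired analysis was possible because each group has only 1 value for a gene, and leaving out libraries was not run for the same reason. The depth of 56 to 174 counts limits PARS2 and MARS2.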
